A study of Vitis vinifera with 12 samples.

Results

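The grapevine small RNA array carried 98 pairs of probes, made of a star probe and its complement. A star probe was built against the miRNA*, the strand that lies opposite the mature miRNA in the precursor hairpin, and the complement probe is its exact reverse complement. Pairs of perfect-match probes that were exact reverse complements were collected, and a pair was left out when either probe, in either orientation, shared 12 or more bases without a gap with a mature sequence of the study's list of precursors. This left 98 of 202 distinct pairs, with 154 names for the star probes and 114 for the complements, among 1579 distinct perfect-match sequences with 1947 names. Where a sequence occurred under several names, its signals were averaged and it is called here by its lowest number. The lower number of a pair is the star probe and the higher its complement. Each probe has a mismatch control, the 2mut probe, in which 2 bases were exchanged.

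Low molecular weight RNA of *Vitis vinifera* cv Corvina was labelled with Cy5 and hybridized in 6 groups of 2 arrays: leaves of plants before flowering, inflorescences 3 weeks before flowering, roots, and berries 5 weeks (green), 9 weeks (veraison, the onset of ripening) and 15 weeks (mature) after flowering. The roots came from plants cultivated in vitro and all other tissues from the field, so that for roots the organ and the way of growing cannot be told apart. No treatment or genotype differed between groups, seeds were taken out of the berries, and the leaf, root and berry samples were pools. The 2 arrays of a tissue came from separate RNA extractions, and nothing says that these came from separate plants, so a p-value measures the spread between extractions. Slides were stripped and used again, and which arrays shared a slide was not given in the sources used here.

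In plants the Dicer-like enzyme DCL1 cuts a hairpin precursor into a short duplex of the miRNA and its miRNA*. The miRNA enters an ARGONAUTE protein and guides it to messenger RNAs with a matching site, whereas the miRNA* is usually lost, although some star strands accumulate and are themselves loaded. A probe binds the RNA to which it is complementary, so a star probe resembles the mature miRNA in its letters, whereas its complement has the letters of the miRNA* itself. The letters were checked for this. The complement probe formed the more stable RNA duplex with a mature sequence in 96 of 98 pairs, with a median energy of -28.6 kcal/mol for complements and -14.9 kcal/mol for star probes. A complement probe could therefore also take up mature miRNA through an imperfect duplex, and the part of this in its signal was not tested. The exceptions were the pairs 833 and 1876, with -13.3 kcal/mol for the star probe, and 38 and 1765, with -30.4 kcal/mol for the star probe. The numbers of the pair 38 and 1765 lie among those of the mature probes, and it went against the label, although the rule kept it. A pair was given the family of the mature sequence in the best duplex of its complement probe. This required an energy of -20 kcal/mol or lower that was also below that of the star probe. It named 89 pairs over 21 families and left 9 without a name, among them the pair 38 and 1765. These names rest on duplex energy alone, and the position of the hairpins in the genome was not analysed here.

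The probes on which the results turn are shown 5′ to 3′, as the DNA letters of the array, with the 2 bases that differ in the 2mut probe in capitals. The first set holds the 3 complement probes that met the detection rule given below and 1814, the complement with the highest mean intensity, each under the star probe of its pair.
Star probe 896 (miR535): tgacagCgacagagagCacgcc
Complement probe 1939 (miR535): ggcgtGctctctgtcGctgtca
Star probe 767 (miR156): tgacAgaaagagaaatGagcac
Complement probe 1810 (miR156): gtgctCatttctctttcTgtca
Star probe 771 (miR156): ttgacagGagaagagagAggac
Complement probe 1814 (miR156): gtcctctcTcttctCctgtcaa
Star probe 882 (miR399): gccagaagGagagaagCccta
Complement probe 1925 (miR399): taggGcttctctCcttctggc
The second set holds the star probes that passed the background level on some array, except 850 of miR394. It also holds 848 and 881, which differed among organs.
Star probe 889 (miR408): atgcactaCctcGtccccg
Star probe 890 (miR477): aggtcccCcactGtcttccaa
Star probe 816 (miR169): gagcctcagatGcttgCcagttatg
Star probe 812 (miR169): agccaagGacaacctGccag
Star probe 898 (miR828): cttcCtcaaatgagCatctca
Star probe 780 (miR160): tgcttgGctcctcGcacgcca
Star probe 848 (miR394): ttggcatGctggCcacctcc
Star probe 881 (miR399): tgccaaagGaggattgCactg
The third set holds a pair of miR167 and miR399 complements that were dimmer than their 2mut probes.
Complement probe 1839 (miR167): caggTcatcttgCagcttca
2mut probe of 1839: caggCcatcttgAagcttca
Complement probe 1919 (miR399): cagggCctctttcActtggta
2mut probe of 1919: cagggTctctttcCcttggta
All 98 star probes and all 98 complements differed from their 2mut probes at 2 positions, and probe lengths ran from 16 to 27 bases with a median of 20.5.

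The background level of an array was set, as in the methods of the study, at the mean plus 2 SD of 14 controls, which are 7 NegCtrl probes without a target in grapevine and 7 DegradCtrl probes against messenger RNA. It ran from 666 to 4353 intensity units over the 12 arrays, with a median of 1421. One of the DegradCtrl probes, for ubiquitin, had 932 to 6938 units, whereas the median of the 14 controls ran from 9.5 to 240 units. The 3 arrays that are replicate 2 of inflorescences, of veraison berries and of mature berries stood apart. They alone held values of exactly 0, for 82 perfect-match probes, which touched 27 complement members and 0 star members. Over the complement probes the 2 arrays of a tissue correlated with r of 0.459 to 0.624 in these 3 tissues and of 0.83 to 0.928 in the others, and over the star probes with r of 0.795 to 0.902 in all tissues (98 probes, log2 normalized intensities, a description across probes).

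Most star probes and most complements had a signal in the range of the controls. The median intensity over the star probes ran from 1.0 to 212 units over the 12 arrays, with a median of 32.2, against 9.5 to 240 units for the median of the 14 controls and 12.8 for the median of the star 2mut probes. The complement probes were brighter, with medians from 19.8 to 249 units and a median array of 99.5, against 59.3 for their 2mut probes. Above the median control lay 17 to 42 star probes on an array and 42 to 60 complements. Above the background level lay 0 to 2 star probes and 0 to 8 complements. Over all arrays, 7 star probes and 14 complements passed it at least once, so that 91 and 84 never did. Of all 1579 sequences, 200 passed it on at least 1 array of leaves, inflorescences or roots, and 186 on at least 1 array of berries. The share of all sequences over the 12 arrays together was not counted.

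The strand comparison set the star probe of each pair against its complement on the same array. The 2 probes of a pair differ in letters and base content, so the counts compare signals of different probes and not amounts of RNA, and the part of unequal binding in them was not tested. The star probe was the brighter one in 19 pairs and the complement in 39 pairs (limma, log2 ratio within an array with intensities under 50 set to 50, Benjamini-Hochberg over all 202 pairs), and 40 pairs did not pass. Over all 202 pairs the lower-numbered probe was the brighter one in 45.5% and the higher-numbered one in 26.2%. Among the 104 pairs that were left out for their likeness to mature sequences, the corresponding counts were 73 and 14. The median log2 ratio of star over complement was -0.31 over the 98 pairs and 0.22 over all 202, and on single arrays the star probe was higher in 27 to 46 of the 98 pairs. The median ratio on single arrays ran from -0.52 to 0.0, with a median array of -0.07. It was 0.0 on both arrays of leaves and of roots, and up to 40 pairs on an array had both probes under 50 units. In 12 of the 39 pairs with a brighter complement that complement passed the background level on at least 1 array, as did the star probe in 6 of the 19 others, so most of these differences lie among signals below it and no fold is given for them. In 26 of the 39 pairs and in 10 of the 19 all 12 arrays had the direction of the call. Without the 3 arrays that stood apart the counts were 16 pairs for the star probe and 37 for the complement.

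The study called a probe present when its signal was above the background level with a perfect match over 2mut ratio above 1.2. Here a probe was counted as present in a tissue when both arrays met this, a demand that the methods of the study do not state. None of the 98 star probes was present in any tissue, and 3 of 98 complements were, against 5.64% of all 1579 perfect-match sequences. The 3 were complements of the stars of miR535 and miR399, present in inflorescences, roots and all berry stages, and of miR156, present in the same tissues except mature berries. No member was present in leaves, where the background level was 912 and 3586 units on the 2 arrays. With 1 of the 2 arrays of a tissue enough, 7 star probes and 11 complements were present, against 14.1% of all sequences. With the ubiquitin control left out of the background level, an alternative chosen after seeing the data, 5 star probes and 12 complements were present, against 14.2% of all sequences. The 5 were 812 and 816 (miR169), 889 (miR408), 890 (miR477) and 898 (miR828).

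miR535 and miR156 are close relatives, and miR156 acts on SPL transcription factors, which bring about the change from the juvenile to the adult phase. Complement probe 1939, of the star of miR535, had 1897 and 1304 units in leaves, 2619 and 5500 in inflorescences, 6931 and 3242 in roots, 31083 and 4462 in green berries, 2117 and 3253 in veraison berries, and 2184 and 3888 in mature berries. It exceeded the background level on 11 of 12 arrays, all but leaves replicate 2, and its highest value came from a single green berry array whose partner was much lower. The star probe of the pair, 896, had 1.0 to 195 units and never passed. The complement was at least 2.5-fold brighter than the star probe when the star probe was set on each array at the background level (measured means of 5707 and 63.6 units, adjusted p = 2.11e-06 by limma). Its 2mut probe had 852 to 4543 units, and the perfect match was brighter on 11 arrays (log2 ratio 1.27 ± 0.19 SE, adjusted p = 0.00129).

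Complement probe 1810, of a miR156 star, lay far above its mismatch. It had 10957 and 591 units in leaves, 1278 and 6918 in inflorescences, 1663 and 8749 in roots, 19483 and 7456 in green berries, 3968 and 4008 in veraison berries, and 424 and 3102 in mature berries. The 2mut probe had 498 units at most and was below the perfect match on all 12 arrays (adjusted p = 3.66e-05). Since it never passed the background level, the perfect match is given as at least 2.31-fold brighter. The 2 arrays of leaves, roots, inflorescences and mature berries lay far apart and all tissues overlapped with leaves, and the F test among organs did not pass (adjusted p = 0.99). Its star probe 767 had a median of 1.0 unit and 212 at most, and the complement was at least 2.31-fold brighter on the same terms.

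Of the other 6 miR156 complements, 1813 was above its 2mut probe, 4 were below theirs and 1 did not pass in either direction. All 7 miR156 pairs and the miR535 pair had the brighter signal on the complement, with mean signals of 533 to 6742 units for the 8 complements against 32.3 to 68.8 units for the 8 star probes. Probe 1813 had 298 to 1995 units, never above the background level, against 1.0 to 394 units for its 2mut probe (adjusted p = 0.000363). Probe 1814 had the highest mean, and it was high on green berries replicate 1 (15340 units), on replicate 2 of inflorescences (17006), veraison (10706) and mature berries (12981), and low on inflorescences replicate 1 (530), roots replicate 1 (572) and mature berries replicate 1 (558). The tissues overlap. Its 2mut probe was brighter on 11 of 12 arrays, at 552 to 27395 units. The same held for 1809, whose 2mut probe was brighter on 12 arrays (log2 ratio -1.21 ± 0.21 SE, adjusted p = 0.00266), and for 1812, on 11 arrays (-1.40 ± 0.16 SE, adjusted p = 0.000283). Probe 1815 was also below its 2mut probe (adjusted p = 0.00735), and 1817 did not differ beyond its spread (adjusted p = 0.735). With no ratio over the 2mut probe asked for, 1809, 1812 and 1814 would count as present and the complements present would be 6, against 6.84% of all sequences. The bounds on the brightness of 1809, 1812 and 1814 over their star probes were 1.66, 1.01 and 2.49-fold. The 7 miR156 complements share letters and a family and are no replicates. The probes for mature miR156 had medians from 936 to 2802 units, and that of miR535 1852 units.

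Among the complements of the sulfate and phosphate families, miR399, which is induced by lack of phosphate and acts on PHO2, gave the third present probe. Complement probe 1925 had 884 and 2103 units in leaves, 1289 and 4565 in inflorescences, 3692 and 3346 in roots, 8477 and 1268 in green berries, 1283 and 3356 in veraison berries, and 1481 and 4282 in mature berries. It passed the background level on all arrays except those of leaves and was brighter than its 2mut probe on 12 of 12, by at least 1.64-fold (adjusted p = 1.72e-05). The same bound held against its star probe 882. The mature probe of its partner name, miR399b and miR399c, had a median of 309 units and never passed the background level. Of the 8 miR399 pairs, 5 had the brighter complement and 0 the brighter star probe, and the complement means ran from 57.7 to 3002 units.

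miR395, which acts on ATP sulfurylase and a sulfate transporter, had 6 pairs, all with the brighter complement. All 6 complements were also above their 2mut probes, as were 2 of the 6 star probes. The 6 complements share most of their letters and are no replicates. The brightest, 1896, stands for 4 probe names of 1 sequence and had 184 to 3050 units (median 671) against 1.0 to 194 units for its 2mut probe (adjusted p = 0.000394). None of the 6 was above the background level on any array.

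Further bright complements belonged to miR167, which acts on auxin response factors, and to miR168, which acts on AGO1. Probe 1842 of miR167 had 525 to 2380 units (median 982), passed the background level on 3 arrays and was brighter than its 2mut probe on all 12, at 212 to 698 units for that probe (adjusted p = 2.71e-05). Probe 1844 of miR168 had a mean of 961 units against 88.6 for its star probe. In miR164, which acts on NAC transcription factors, all 3 pairs had the brighter complement, with means of 212 to 434 units against 73.3 to 76.8 units, but 2 of the 3 complements were below their 2mut probes. The miR164 complement 1828 is 1830 without its first base, so these pairs are no replicates. Both miR393 pairs and the miR390 pair, of auxin signalling, also had the brighter complement, with the highest mean, 284 units, in miR390.

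The star probe was the brighter one of the pair in 4 of 5 miR160 pairs, 5 of 20 miR169 pairs, 2 of 6 miR166 pairs, 2 of 7 miR171 pairs, and in the single pairs of miR162, miR408, miR477 and miR828. Pairs of a family can be nearly the same sequence and are no replicates. Among the 5 of miR169, star probe 822 is 820 without its first base. miR408 acts on copper proteins such as plantacyanin. Its star probe 889 had 343 and 811 units in leaves, 1006 and 4583 in inflorescences, 2373 and 618 in roots, 2618 and 283 in green berries, 791 and 1668 in veraison berries, and 442 and 1093 in mature berries. It passed the background level once in each of inflorescences, roots and green berries and on both arrays of no tissue. The mean was 1386 units against 109 for its complement (adjusted p = 7.1e-05), and the perfect match was above its 2mut probe on 10 of 12 arrays (260 to 2552 units, adjusted p = 0.00765).

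Star probe 890 of miR477 had 361 to 2251 units and a median of 920, a mean of 1040 units against 62.9 for its complement, and a higher signal than its 2mut probe on 12 arrays (adjusted p = 0.00077). It passed the background level on replicate 1 of veraison and of mature berries. Star probe 898 of miR828, whose family acts on MYB transcription factors, had a dim 2mut probe, at 1.0 to 201 units. Its own signal was 557 and 194 units in leaves, 237 and 2075 in inflorescences, 142 and 2062 in roots, 3156 and 652 in green berries, 519 and 1267 in veraison berries, and 289 and 2090 in mature berries. The 2 arrays of every tissue differed more than 2-fold, and the tissues overlapped. It was above its 2mut probe on all 12 arrays (adjusted p = 0.00329).

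miR169 acts on NF-YA subunits of a transcription factor complex and made up 20 of the 98 pairs, the largest family. Its star probes 812 and 816 passed the background level on some array. Probe 816 had 381 to 1190 units and its highest values in berries, with 1159 and 1190 units in green, 1073 and 977 in veraison and 801 and 890 in mature berries, against 709 and 381 in roots, 831 and 495 in inflorescences and 556 and 496 in leaves. Its moderated F tests did not pass (adjusted p = 0.981 among organs and 0.997 among berry stages). Neither of them sets berries against the organs, and that difference was not tested. It was brighter than its 2mut probe on 12 arrays (128 to 400 units, adjusted p = 1.21e-05), and its mean of 796 units stood against 75.6 for the complement. The median over the 20 miR169 pairs was 80.6 units for star probes and 78.5 units for complements.

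The star probes of miR160, which acts on auxin response factors, were above their 2mut probes in 2 of 5 cases and below them in 2. Probe 780 had 380 to 4048 units with a median of 1035, and its 2mut probe was brighter on 10 arrays, at 436 to 6366 units (log2 ratio -0.58 ± 0.16 SE, adjusted p = 0.0218). Probe 781 did not differ from its 2mut probe beyond the spread (adjusted p = 0.126). Probe 778 had 1.0 to 239 units, below its 2mut probe on all arrays (181 to 1523 units, adjusted p = 0.000197). Probes 779 and 783 were above theirs on 12 arrays (adjusted p = 0.00612 and 0.00162), with medians of 390 and 427 units. In miR166, which acts on HD-ZIP III transcription factors, 5 of 6 star probes were above their 2mut probes, among them 788, at 148 to 802 units against 1.0 to 205 units (adjusted p = 0.000125).

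Over all members, 28 star probes and 28 complements were brighter than their 2mut probe, against 29.6% of all 1579 sequences, so the members' share was near that of the array as a whole. Dimmer than their 2mut probe were 7 star probes and 15 complements, against 13.4% of all sequences. The median log2 ratio of perfect match over 2mut was 0.08 for star probes, 0.10 for complements and 0.09 for all sequences. Of the probes above their 2mut, 22 star probes and 20 complements never passed the background level, and neither did their 2mut probes. Without the 3 arrays that stood apart, 34 star probes and 39 complements were brighter, and 22 star probes and 18 complements dimmer, against 39.6% and 17.2% of all sequences.

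Where the 2mut probe was the brighter one, the difference could be large. Complement probe 1839 of miR167 had 231 to 528 units on the 9 arrays other than the 3 that stood apart, where it read 0, whereas its 2mut probe had 2714 to 6892 units on all 12 and passed the background level on 10. The 2mut probe was at least 2.71-fold brighter, and the call held with values of 0 taken as missing (adjusted p = 4.6e-05). Complement probe 1919 of miR399 had 1.0 to 290 units against 334 to 3692 units for its 2mut probe (adjusted p = 9.52e-05), and 1828 of miR164 had 0 to 1038 units against 696 to 9368 units (adjusted p = 0.00398, and 0.0597 without the 3 arrays). Star probes 828 of miR171 and 867 of miR396 also lay below their 2mut probes on all 12 arrays (adjusted p = 0.00134 and 0.00127). The pair 38 and 1765, which went against the label, had a dim star probe (50.5 to 457 units) and a complement of 216 to 2370 units that was above its 2mut probe on all 12 arrays (adjusted p = 0.000217).

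Several bright complements shared sequence features that the rule for members had not used. The 8 miR156 and miR535 complements all held the letters CTGTCA, as did 2.47% of all sequences (4.94% when either strand is counted, as TGACAG), and 0 of the other complement members. The mature miR156 sequences hold TGACAG, which pairs with CTGTCA, and families were named by duplex with mature sequences. For the miR156 complements these letters thus overlap with the family name. The mature miR535 sequence in the study's list does not hold TGACAG, so this does not cover the miR535 complement. Whether the letters go with brightness apart from family was not tested. A run of 10 or more pyrimidines (C or T) occurred in 8 complements, 0 star probes and 1.14% of all sequences. The 8 were 1809, 1810, 1812 and 1814 of miR156, 1828 and 1830 of miR164, and 1918 and 1925 of miR399. This feature therefore also overlaps with family, and the star probes of these pairs hold the run as purines. The mean intensity of these 8 complements had a median of 2400 units against 122 units for the other 90, and 6 of the 8 were among the 14 that passed the background level on an array. Both 1918 of miR399 and 1830 of miR164 had such a run and did not pass. The feature and its minimum were chosen after seeing the values, so these counts are a description with no test. Across the 98 probes of a strand, mean log2 intensity went with the share of pyrimidines with a Spearman rho of 0.526 for star probes and 0.401 for complements. It went with GC content with a rho of 0.530 for star probes and 0.211 for complements, and with duplex energy to the nearest mature sequence with -0.414 for star probes and -0.148 for complements. Star and complement signals of a pair had a rho of -0.044. These probes share arrays and families, so no p is given.

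Among organs, 4 star probes and 1 complement differed between roots, inflorescences and leaves (limma moderated F test on quantile-normalized log2 intensities, Benjamini-Hochberg over all 1579 sequences), against 3.74% of all sequences. In such bulk samples, fewer cells of a type and less RNA per cell cannot be told apart. Star probe 812 of miR169, which stands for 4 probe names, was the only one of the 5 that reached the background level. It had 190 and 352 units in roots, 1768 and 4318 in inflorescences and 70.9 and 52.7 in leaves, so that inflorescences did not overlap with either other organ (adjusted p = 0.0123). It passed the background level on 1 of the 2 inflorescence arrays. With the lower group set at the lowest signal that passed the background level, inflorescences were at least 1.75-fold above roots and at least 1.13-fold above leaves, with normalized means of 356 units in roots, 2496 in inflorescences and 126 in leaves. The call was lost without inflorescences replicate 2 (adjusted p = 0.0939). With only the 6 organ arrays in the fit, none of the 5 calls passed (adjusted p of 0.0513 for 812 to 0.154 for 882), and 1.2% of all sequences did. In berries the probe had 943 and 269 units in green, 665 and 2497 in veraison and 256 and 435 in mature berries. Its complement averaged 115 units.

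The other 4 organ calls lay below the background level on every array, so only their levels are given. Star probe 848 of miR394, a family that acts on an F-box protein, had normalized intensities of 382 and 354 units in roots, 587 and 742 in inflorescences and 124 and 75.5 in leaves (adjusted p = 0.0123). It was no brighter than its 2mut probe over all arrays (adjusted p = 0.968). The miR399 star probes 881 and 882 were highest in roots. Probe 881 had normalized intensities of 203 and 310 units in roots, 56.1 and 42.9 in inflorescences and 37.3 and 61.9 in leaves (adjusted p = 0.0123), and 882 had 226 and 158 units in roots, 66.0 and 42.9 in inflorescences and 57.0 and 40.2 in leaves (adjusted p = 0.0438). Before normalization the organs overlapped for 881, with 150 and 196 units in roots, 200 and 1.0 in inflorescences and 1.0 and 7.0 in leaves. The median control was 240 units on inflorescences replicate 1, its highest on the 12 arrays, against 55.5 on replicate 2. Without normalization between arrays neither miR399 probe passed (adjusted p = 0.407 for 881 and 0.613 for 882). Leaving out single arrays raised the adjusted p of 882 to 0.419 without roots replicate 1, of 881 to 0.136 without roots replicate 2, and of 848 to 0.0835 without leaves replicate 2. Complement probe 1848 of miR169 had normalized intensities of 37.2 and 46.2 units in roots, 222 and 176 in inflorescences and 58.8 and 66.0 in leaves (adjusted p = 0.0269, and 0.188 without inflorescences replicate 1).

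Among berry stages, 0 star probes and 0 complements passed the same test, as did 0 of all 1579 sequences. The lowest adjusted p was 0.302 on either strand. An unadjusted p under 0.05 was reached by 7 star probes and 8 complements, against 6.84% of all sequences. The complements with the lowest p, 1845 of miR169 and 1873 of miR171, had normalized intensities of 40.4 and 48.9 units in green, 53.7 and 55.0 in veraison and 110 and 147 in mature berries for 1845, and 41.9 and 37.7 in green, 43.8 and 55.5 in veraison and 114 and 108 in mature berries for 1873. Both were highest in mature berries with no overlap, at levels far below background.

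Whether the ratio of star probe over complement itself changed among the 6 tissues was tested with a moderated F test that was added after seeing the data. It was passed by 0 of 98 pairs, against 0.495% of all 202 pairs, with a lowest adjusted p of 0.143 and an unadjusted p under 0.05 for 7 pairs. The strand with the brighter signal was thus not shown to differ between tissues for any pair.

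In the remaining families the miR171 complements 1872 and 1877 each passed the background level on 1 array, and no other member of these families did. In families described above, it was also passed on 1 array each by star probe 850 of miR394 and by 4 complements. These were 1823 and 1824 of miR160, 1828 of miR164 and 1854 of miR169. Complement 1817 of miR156 passed it on 4 arrays. In the 6 miR319 and 2 miR159 pairs, which act on TCP and MYB transcription factors, star probes had means of 34.2 to 89.5 units and complements of 47.3 to 309 units, and 3 of the 8 complements were brighter than the star probe. The 7 miR171 pairs, whose targets are GRAS transcription factors, had 3 brighter complements and 2 brighter star probes, with the star probe 835 at a mean of 337 units against 116 for its complement. In miR396, which acts on growth-regulating factors, 1 of 2 star probes was the brighter one. In the single pair of miR162, which acts on DCL1, the star probe had a mean of 165 units against 44.1 for the complement. Of the 9 pairs without a name, 1 had the brighter star probe and 2 the brighter complement, with star means of 33.2 to 172 units and complement means of 35.5 to 760 units.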

How the data were processed

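The authors hybridized Cy5-labelled low molecular weight RNA to a CombiMatrix 12K array with 3 replicate spots per probe, scanned it on a Perkin Elmer ScanArray and deposited, per array, the median and SD of the spot intensity of each probe on a linear scale with no normalization. A second deposited table, to which the authors had applied quantile normalization, served as an alternative. The sources used here do not say if local background had been removed. Intensities of 1 sequence were averaged over its names. Mature sequences came from the study's list of precursors (73 distinct), and duplex energies from ViennaRNA 2.7.2. Presence followed the study's background level and mismatch ratio, asked for here on both arrays of a tissue. Ratios within an array (intensities under 50 set to 50) and quantile-normalized log2 values were fitted with limma 3.58.1 in R 4.3.3 (lmFit, eBayes, 6 groups of 2 arrays), with Benjamini-Hochberg adjustment and a threshold of 0.05, and the fits were tested on simulated data. The text names probes that were present, the 10 brightest of each strand over background, and the up to 6 with the largest difference per direction in each fit, and names others beside them as examples chosen after their values were seen. Bounds replace folds where the dimmer probe was above background on no array, and where the bound was under 1 intensities alone are given. The number of arrays limits the precision, and 1 array holds 1 sample. The probes, families and lists were chosen with earlier results of these data known. Probes of other classes were used only as the background of each fit.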

Additional observations from a re-analysis of the deposited data

Results flagged for a closer look

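Control probes outside all comparisons gave signal above the background level on both arrays of a tissue in 3 cases. Among 13 further positive controls, a probe for chloroplast tRNA-Ser was above it on 11 of 12 arrays, with a median of 55624 units. The rest of these 13 positive controls passed the background level on no array. Among 35 control probes named NC, a bacterial probe (10-7) was above it on 9 of 12 arrays, at 453 to 5632 units, and another (5-12) on 7 of 12 arrays, at 912 to 8162 units. These probes entered neither the background level nor any comparison between tissues.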

How the results depend on the processing

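Counts of presence depended on the background level. With the negative controls alone 5 star probes and 11 complements were present (12.5% of all sequences), with signal on 1 of the 2 arrays 7 and 11 (14.1%), and with no mismatch ratio 6 complements (6.84%). Chosen after seeing the data were the levels without the ubiquitin control (5 and 12, 14.2%), without it and the Lambda Spike 8 control (13 and 18, 19.2%), and without it and with no mismatch ratio (9 and 17, 17.2%). Leaving out single arrays gave 0 to 2 star probes and 3 to 6 complements, against 5.76% to 9.69% of all sequences. The 6 complements came without leaves replicate 2 (8.87%). The 2mut comparison gave 18 star probes above their 2mut at a floor of 100 (23.2% of all sequences), against 28, and 22 below it, against 7, without replicate 2 of inflorescences, veraison and mature berries. Leaving out single arrays gave 23 to 32 and 22 to 29 (star probes and complements above), 6 to 9 and 14 to 18 (below), 18 to 21 and 36 to 42 (pairs with the brighter star probe or complement), and a median log2 ratio of -0.36 to -0.26, which was -0.52 at a floor of 20. Among organs, star probes called numbered 1 with only probes above background, 0 with only the arrays compared and 0 without the 3 arrays. Complements called were 13 with no normalization (10.9% of all sequences), 12 when arrays were scaled on positive controls (10.8%), and 0 with scaling to the 75th percentile, the authors' table, only probes above background, only the arrays compared, or without the 3 arrays. Leaving out single arrays gave 0 to 4 star probes (0 without inflorescences replicate 2, 2 without leaves replicate 2 or either root array) and 0 to 1 complements (0 without any 1 of the 6 organ arrays). Among berry stages every alternative gave 0. The median log2 ratio of star over complement was closer to no difference at a floor of 100 (-0.16) and without the 3 arrays (-0.19). With a minimum overlap of 10 or 14 bases the rule kept 82 or 106 pairs. With the replicate number as a block the counts were 28 and 28 above 2mut, 7 and 15 below, 19 and 41 pairs, and 3 and 1 organ calls. Same-numbered arrays deviated together in some tissue pairs only (correlations of -0.559 to 0.699, over 0.1 in 6 of 15), so the numbers were not taken as pairs. Of 29 results for single probes, 23 kept their call and direction under all alternatives, and none turned its direction. The cause of these changes was not tested. The main limits are the 2 arrays per tissue and signals that lie mostly below the background level.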
